A study of Homo sapiens with 32 samples.

Results

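The genes described here are 10 enzymes that make and modify fatty acids, namely ACLY, ACSS2, ACACA, FASN, SCD, ELOVL5, ELOVL6, FADS1, FADS2 and ME1. They were selected by name from the 22610 entries of a gene expression table, and 10 of 10 were found and passed the filter that left 12621 genes for testing. The table holds RNA-Seq of SK-N-BE(2), a human neuroblastoma line with amplified MYCN, treated with CBD (cannabidiol, the major nonpsychoactive compound of cannabis) or with vehicle. Cells received 20 μM CBD in ethanol or 0.1% ethanol alone for 3, 6, 12 or 24 h, and 4 cultures were profiled for each of the 8 combinations (32 samples). The cells carried no transgene or deletion by their labels, and all 8 groups came from the same single line. Ethanol was the vehicle, and its percent is recorded for the vehicle groups only. The cultures of a group were labelled as replicates and nothing states that they came from separate days, so p-values measure the spread between these cultures.

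Fatty acids are built in the cytosol from acetyl-CoA. ACLY cleaves citrate to supply acetyl-CoA and ACSS2 makes it from acetate. ACACA carboxylates acetyl-CoA to malonyl-CoA, the committed step, and FASN joins these units into palmitate with NADPH, part of which comes from ME1, the cytosolic malic enzyme. ELOVL6 extends saturated and monounsaturated chains, SCD places the first double bond to give oleate and palmitoleate, and FADS2, FADS1 and ELOVL5 (the delta-6 desaturase, the delta-5 desaturase and an elongase) turn dietary essential fatty acids into long polyunsaturated ones. Many of these genes are known targets of the SREBP transcription factors, which also control cholesterol synthesis.

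The adrenergic neuroblastoma markers were present in the samples, with 10 of 10 at a mean of at least 1 FPKM (a transcript level scaled for gene length and for sequencing depth). Cells known for high fatty acid synthesis were not seen, since 0 of 5 adipocyte and 0 of 4 hepatocyte markers reached 1 FPKM, with summed levels of 0.239 to 0.636 and 0.032 to 0.421 FPKM in single samples. Relative sequencing depth, estimated from the smallest values of 1414 low genes, ranged from 0.794 to 1.198 between samples, and each sample had 19359 to 19962 entries above 0. Read counts are not recorded in FPKM, so no counting interval is given. In bulk RNA of this kind, fewer cells of a type and less RNA per cell cannot be told apart.

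The genes lie on 6 human autosomes (GENCODE annotation on GRCh37, the equivalent of the hg19 build used by the authors). SCD is on chromosome 10 from 102106990 to 102124583 on the plus strand, ACSS2 on chromosome 20 from 33459949 to 33515765 on the plus strand, and ELOVL6 on chromosome 4 from 110967002 to 111120355 on the minus strand. ACLY (40023170 to 40086795), ACACA (35441927 to 35766927) and FASN (80036214 to 80056170) are on the minus strand of chromosome 17. ELOVL5 (53132196 to 53213977) and ME1 (83920121 to 84140770) are on the minus strand of chromosome 6. FADS1 (61567099 to 61596790, minus strand) lies within the annotated extent of FADS2 (61560452 to 61634826, plus strand) on chromosome 11. The study describes the run as first stranded, and FADS1 and FADS2 lie on opposite strands. Whether Cufflinks was set to use the strand is not given in the sources used here, so reads from where they overlap may have been assigned to either gene. All 50-base words in annotated transcripts were compared with transcripts of other genes, read in either orientation. Shared words made up 4.97% for FADS1, 3.23% for FADS2 and 4.52% for SCD, which has a pseudogene (SCDP1). They made up 2.57% for ELOVL6, 1.985% for ACLY and 0.208% for ACACA. ACSS2, FASN, ELOVL5 and ME1 share 0 such words.

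Promoter sequence is shown for the gene with the greatest change (ACSS2), for SCD and ELOVL5, which also differed by 6 h, and for the FADS1 and FADS2 pair, which differed from 12 h. RefSeq windows on GRCh38.p14, from 250 bases before a transcript start to 50 after it, matched 9 of 10 genes, with 14 windows in all. FASN had no entry. Capitals mark CCAAT (the CCAAT box, known to bind NF-Y) and GGGCGG (the GC box, known to bind SP1) on either strand, which therefore also appear as ATTGG and CCGCCC. The windows are chr10:100346983-100347282 (plus strand) for SCD, chr6:53348901-53349200 (minus) for ELOVL5, chr20:34876362-34876661 (plus) for ACSS2, chr11:61816954-61817253 (minus) for FADS1 and chr11:61816154-61816453 (plus) for FADS2.
SCD: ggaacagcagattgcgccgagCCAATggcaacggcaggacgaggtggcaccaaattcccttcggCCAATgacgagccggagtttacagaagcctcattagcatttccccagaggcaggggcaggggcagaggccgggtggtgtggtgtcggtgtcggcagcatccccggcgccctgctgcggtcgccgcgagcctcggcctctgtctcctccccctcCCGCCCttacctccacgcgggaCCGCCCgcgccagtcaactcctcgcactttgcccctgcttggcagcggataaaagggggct
ELOVL5: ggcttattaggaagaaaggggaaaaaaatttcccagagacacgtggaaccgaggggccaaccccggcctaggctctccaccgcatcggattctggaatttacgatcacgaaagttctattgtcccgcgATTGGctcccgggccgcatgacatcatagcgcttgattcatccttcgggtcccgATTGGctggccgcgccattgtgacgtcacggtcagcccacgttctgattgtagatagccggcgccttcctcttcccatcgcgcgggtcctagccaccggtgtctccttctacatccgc
ACSS2: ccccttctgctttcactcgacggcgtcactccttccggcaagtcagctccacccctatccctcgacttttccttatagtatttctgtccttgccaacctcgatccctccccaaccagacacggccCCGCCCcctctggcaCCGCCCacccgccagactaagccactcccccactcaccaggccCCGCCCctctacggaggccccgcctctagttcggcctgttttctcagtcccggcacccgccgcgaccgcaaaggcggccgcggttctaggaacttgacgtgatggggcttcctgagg
FADS1: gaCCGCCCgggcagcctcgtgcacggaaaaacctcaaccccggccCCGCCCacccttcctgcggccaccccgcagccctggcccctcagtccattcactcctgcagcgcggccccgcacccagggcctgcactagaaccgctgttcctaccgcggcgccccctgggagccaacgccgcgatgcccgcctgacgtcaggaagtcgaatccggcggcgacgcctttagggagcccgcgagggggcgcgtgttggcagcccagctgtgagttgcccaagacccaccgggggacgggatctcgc
FADS2: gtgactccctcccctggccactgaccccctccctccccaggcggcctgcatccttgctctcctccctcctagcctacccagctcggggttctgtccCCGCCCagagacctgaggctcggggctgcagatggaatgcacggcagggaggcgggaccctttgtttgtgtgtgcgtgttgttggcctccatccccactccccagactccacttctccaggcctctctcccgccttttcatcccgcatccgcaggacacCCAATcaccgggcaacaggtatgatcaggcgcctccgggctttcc
CCAAT was found in 8 of 14 windows, belonging to 6 genes, against 34.6% of 35116 windows of all genes. GGGCGG was found in 11 of 14 windows, belonging to 8 genes, against 45.0% of all windows. The windows of SCD and ELOVL5 each hold a pair of CCAAT matches, at positions -229 and -186 for SCD and -122 and -68 for ELOVL5 with the start at 0. Pairs were also found in both windows of ACLY and in 1 window of ACACA, genes first called at 12 h. Among the other genes called at 6 h, ME1 had no CCAAT match and ACSS2 had one only in a window not shown. TCACNCCAC, a core of the sterol regulatory element that SREBP binds, was in 0 of 14 windows and in 1.13% of all windows. With so rare a match, 0 of 14 windows does not show that these genes lack the element. CACGTG was in the window of ELOVL5 and in 7.26% of all windows. Several windows overlap or belong to the same gene, and a match of letters is a description and no binding site.

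The levels of the 10 genes spanned a wide range in vehicle culture. At 3 h in vehicle, SCD was highest with a mean of 238.1 FPKM, followed by ACLY (174.0), FADS2 (150.8) and FASN (135.1), and the samples of FADS2 and FASN overlapped. FADS1 (85.9), ELOVL5 (76.2), ACACA (35.1), ELOVL6 (30.2), ME1 (10.2) and ACSS2 (4.51) followed without overlap between neighbours. The acetate route thus began with the lowest transcript of the group and the citrate route with one of the highest.

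**Figure D1:**
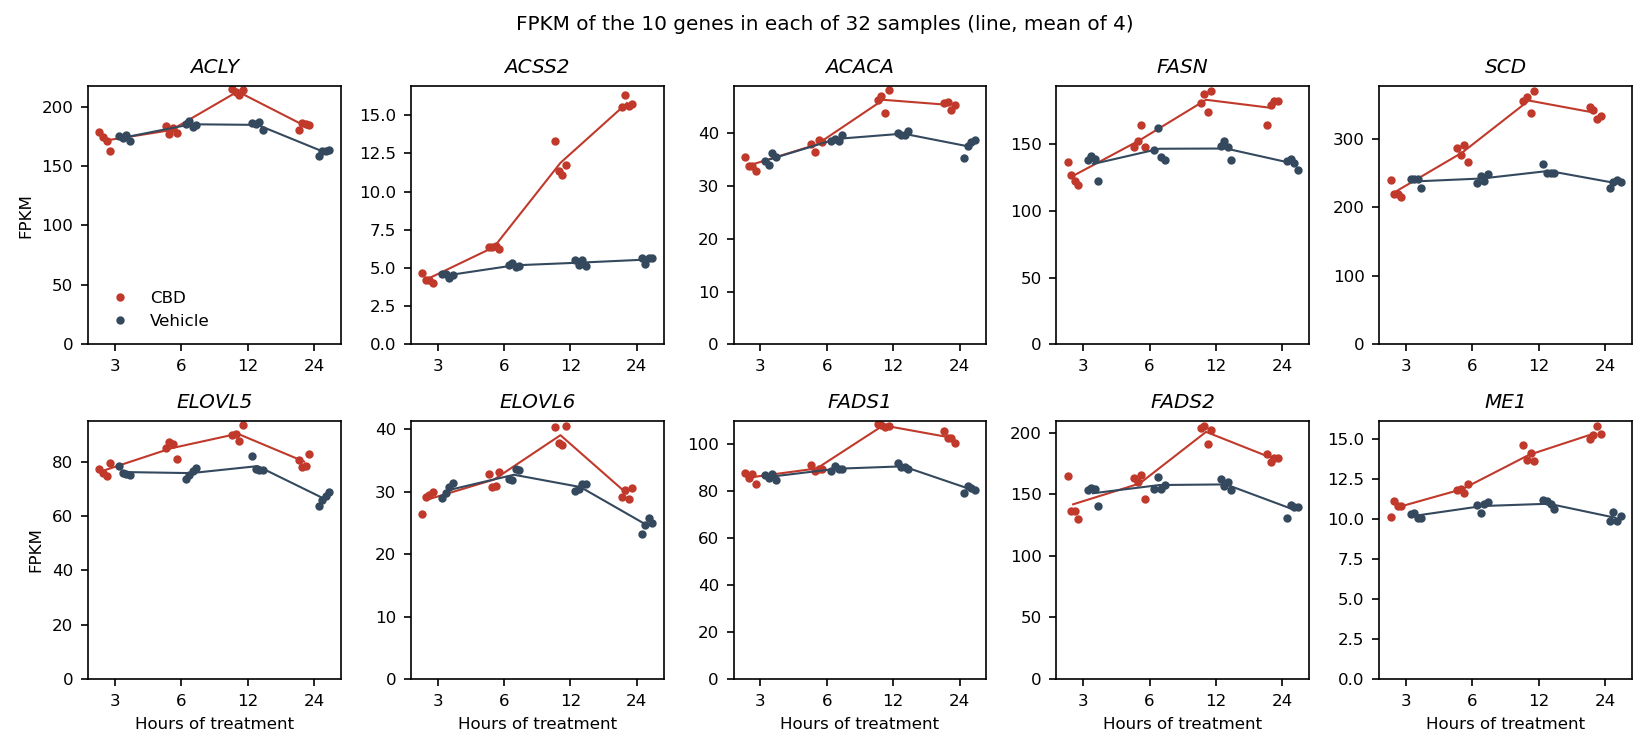
FPKM (y axis, linear from 0, its own scale in each panel) of the 10 genes by hours of treatment (x axis), with each point 1 culture, red for CBD and dark blue for vehicle, and lines through the means of 4. In ACSS2 the CBD samples reach 15.5 to 16.3 at 24 h while the vehicle samples stay between 5.27 and 5.65, and in ELOVL6 both treatments are lower at 24 h than at 12 h.

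None of the 10 genes passed the threshold for a difference between CBD and vehicle at 3 h. The question of each comparison is when CBD moved a transcript away from its time-matched vehicle, and differences are given on the log2(FPKM + 1) scale with the standard error from limma over all 32 samples and an adjusted p (Benjamini-Hochberg over 12621 genes) under 0.01 as the threshold for a call. The differences ran from -0.10 for FASN (95% interval -0.20 to 0.01, adjusted p = 0.265) to 0.06 for ME1 (0.01 to 0.11, adjusted p = 0.15). At an unadjusted p under 0.05 the count was 2 (SCD, lower with CBD, and ME1, higher). The median difference of the 10 genes was -0.0552, beside 0.00662 over all genes tested. Over all genes tested at 3 h, 1.18% were called higher and 1.28% lower. No gene of the 10 had its 4 CBD samples all above the 4 vehicle samples, a separation shown by 5.52% of all genes. Levels of SCD at 3 h were 240.2, 218.9, 219.1 and 215.2 FPKM with CBD and 242.2, 241.1, 241.1 and 227.9 FPKM with vehicle, a difference of -0.09 ± 0.03 (SE, n = 4 and 4) that missed the threshold (adjusted p = 0.0883, limma). Without CBD 3 h replicate 1, FADS2 was called lower at 3 h (-0.17, adjusted p = 0.0079), a call absent with all cultures (-0.09, adjusted p = 0.274).

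At 6 h, 4 of the 10 genes were higher with CBD and the other 6 were not called. They were ACSS2, the acetate-activating enzyme, SCD, the delta-9 desaturase, ELOVL5, the polyunsaturated elongase, and ME1, the NADPH source. Among all genes, 4.07% were called higher and 6.13% lower at that time. The same 4 genes had all 4 CBD samples above all 4 vehicle samples, against 8.46% of all genes.

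ACSS2 measured 6.36, 6.40, 6.46 and 6.25 FPKM with CBD and 5.16, 5.31, 5.05 and 5.15 FPKM with vehicle at 6 h. The CBD samples were thus tightly grouped above the vehicle samples, a difference of 0.26 ± 0.04 (adjusted p = 2.17e-05, limma). SCD measured 287, 277, 292 and 266 FPKM with CBD and 236, 246, 239 and 248 FPKM with vehicle, a difference of 0.21 ± 0.03 (adjusted p = 5.75e-05). ELOVL5 measured 85.1, 87.1, 86.6 and 81.1 FPKM against 73.6, 75.3, 76.6 and 77.9 FPKM, a difference of 0.16 ± 0.03 (adjusted p = 0.000205). In ELOVL5 the lowest CBD culture lay close to the highest vehicle culture. ME1 measured 11.8, 11.9, 11.6 and 12.2 FPKM against 10.9, 10.4, 10.9 and 11.1 FPKM, the smallest of the 4 called differences at 0.12 ± 0.03 (adjusted p = 0.00112). The calls of ELOVL5 and ME1 were lost when the 6 h samples were fitted alone (adjusted p = 0.013 and 0.0215), with the same differences.

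The genes of the citrate to palmitate route were not called at 6 h. ACLY differed by -0.04 (95% interval -0.08 to 0.00), ACACA by -0.04 (-0.10 to 0.02) and FASN by 0.06 (-0.04 to 0.17). The desaturase pair also was not called, with FADS1 at 0.00 (-0.03 to 0.04) and FADS2 at 0.01 (-0.09 to 0.11), nor was ELOVL6 at -0.03 (-0.11 to 0.04). The interval of FADS1 is the narrowest of these and bounds its 6 h difference well below the difference it had later.

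From 12 h on, the transcript levels of the 10 genes were higher with CBD. All 10 genes were called higher at 12 h and again at 24 h, against 8.85% and 20.8% of all genes, with 11.2% and 21.3% called lower. All 4 CBD samples were above all 4 vehicle samples in 10 of 10 genes at both times, a separation shown by 13.4% and 25.1% of all genes. The median difference of the 10 genes was 0.32 at 12 h and 0.36 at 24 h, beside medians of 0.00 over all genes tested. Every call at these times kept its side of the threshold and its direction in each alternative and with each culture left out, with a highest adjusted p of 0.00236 (ELOVL5 at 12 h with the groups fitted alone).

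**Figure D2:**
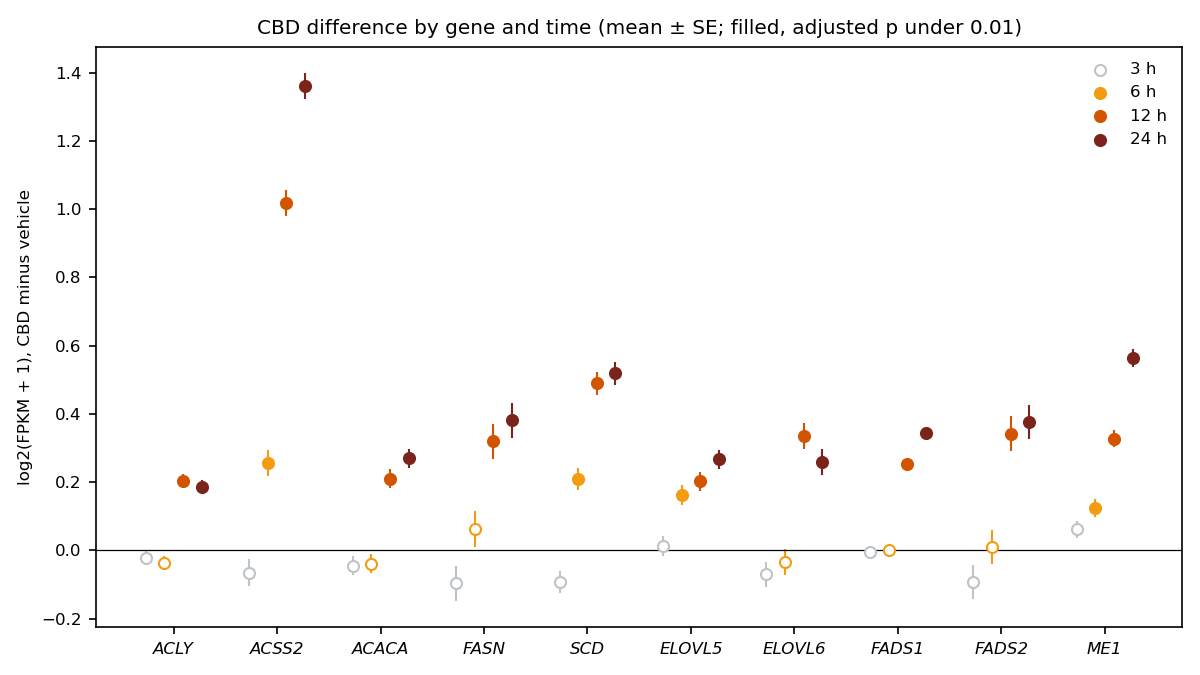
Difference between CBD and vehicle on the log2(FPKM + 1) scale (y axis) for the 10 genes (x axis) at 3, 6, 12 and 24 h, with bars of 1 SE and filled points where the adjusted p is under 0.01. Filled points number 0, 4, 10 and 10 at the 4 times, and ACSS2 lies above the other genes at 12 h (1.02) and 24 h (1.36).

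Among the acetyl-CoA suppliers, the difference was wide for ACSS2 and narrow for ACLY. ACSS2 measured 13.3, 11.4, 11.1 and 11.8 FPKM with CBD at 12 h against 5.51, 5.21, 5.53 and 5.14 FPKM with vehicle, a difference of 1.02 ± 0.04 (2.03-fold on that scale, adjusted p = 5.95e-17, limma). At 24 h it measured 15.5, 16.3, 15.6 and 15.7 FPKM against 5.65, 5.27, 5.65 and 5.62 FPKM, a difference of 1.36 ± 0.04 (2.57-fold, adjusted p = 5.73e-20). The difference ranked 67th among the 12621 genes tested at 24 h and 130th at 12 h. By then ACSS2, the lowest of the 10 genes in vehicle at every time, overlapped the level of ME1 in CBD (15.0 to 15.8 FPKM). ACLY measured 214, 212, 210 and 214 FPKM with CBD at 12 h against 186, 185, 187 and 180 FPKM, and 180, 186, 185 and 185 FPKM at 24 h against 158, 163, 163 and 164 FPKM. Its differences of 0.20 ± 0.02 and 0.19 ± 0.02 (adjusted p = 1.93e-08 and 2.59e-08) were the smallest of the 10 genes at 24 h.

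FASN, ACACA and ME1, which build the chain and supply its NADPH, were all higher, ACACA least and ME1 most at 24 h. FASN measured 181, 188, 174 and 190 FPKM with CBD at 12 h against 149, 152, 148 and 138 FPKM, and 164, 179, 182 and 182 FPKM at 24 h against 137, 139, 136 and 130 FPKM. The differences were 0.32 ± 0.05 and 0.38 ± 0.05 (adjusted p = 2.82e-05 and 7.07e-07, limma), with the widest standard errors of the 10 genes. ACACA, the committed step, differed by 0.21 ± 0.03 and 0.27 ± 0.03, with 43.9 to 48.2 FPKM against 39.7 to 40.4 FPKM at 12 h and 44.5 to 46.1 FPKM against 35.4 to 38.7 FPKM at 24 h. ME1 measured 14.6, 13.7, 14.1 and 13.6 FPKM with CBD at 12 h and 15.0, 15.3, 15.8 and 15.3 FPKM at 24 h, against 11.2, 11.1, 10.9 and 10.6 FPKM and 9.89, 10.4, 9.86 and 10.2 FPKM with vehicle. The differences of ME1 were 0.33 ± 0.03 and 0.56 ± 0.03, and the one at 24 h was exceeded only by ACSS2 among the 10 genes.

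SCD was the most abundant of the 10 genes in both treatments. It measured 356, 362, 338 and 370 FPKM with CBD at 12 h against 263, 250, 251 and 250 FPKM, and 347, 343, 330 and 333 FPKM at 24 h against 229, 237, 240 and 237 FPKM. The differences were 0.49 ± 0.03 and 0.52 ± 0.03 (40.4% and 43.3% higher, adjusted p = 1.05e-11 and 9.6e-13, limma).

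Transcripts of FADS1, FADS2 and the elongases were higher as well. FADS1 measured 108, 108, 107 and 108 FPKM with CBD at 12 h against 91.8, 90.3, 90.2 and 89.2 FPKM, and 105, 103, 102 and 100 FPKM at 24 h against 79.2, 82.2, 81.3 and 80.4 FPKM. Its differences were 0.25 ± 0.02 and 0.34 ± 0.02, with the narrowest error of the group. FADS2 measured 204, 206, 191 and 202 FPKM with CBD at 12 h against 162, 157, 160 and 153 FPKM, and 182, 176, 179 and 179 FPKM at 24 h against 131, 142, 140 and 140 FPKM. Its differences were 0.34 ± 0.05 and 0.38 ± 0.05. The elongases also differed, ELOVL5 by 0.20 ± 0.03 and 0.27 ± 0.03 and ELOVL6 by 0.33 ± 0.04 and 0.26 ± 0.04 at 12 and 24 h. ELOVL6 measured 40.3, 37.8, 37.5 and 40.4 FPKM with CBD at 12 h against 30.0, 30.4, 31.2 and 31.2 FPKM.

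The lag of each gene was tested as the change of its CBD difference between times. From 3 to 6 h the difference grew in 2 of 10 genes, ACSS2 (by 0.32 ± 0.05, adjusted p = 0.000486) and SCD (by 0.30 ± 0.05, adjusted p = 0.0002), against 0.705% of all genes. ELOVL5 was just outside the threshold (0.15, adjusted p = 0.0285). From 6 to 12 h it grew in 8 of 10 genes, against 1.43% of all genes, by 0.20 (ME1) to 0.76 (ACSS2). The exceptions were FASN (0.26 ± 0.07, adjusted p = 0.0335), whose difference passed the threshold at 12 h and not at 6 h, and ELOVL5 (0.04 ± 0.04, 95% interval -0.04 to 0.12). For FADS2 the growth of 0.33 ± 0.07 (adjusted p = 0.00483) was no longer called without any of 6 single cultures (CBD replicate 4 and vehicle replicate 2 of 6 h, CBD replicates 1 and 2 and vehicle replicates 2 and 4 of 12 h), with adjusted p of 0.0105 to 0.0131.

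From 6 to 24 h the difference grew in 9 of 10 genes, against 10.9% of all genes. Growth was greatest for ACSS2 (1.10 ± 0.05) and ME1 (0.44 ± 0.04), and ELOVL5 alone was not called (0.10, 95% interval 0.02 to 0.19, adjusted p = 0.0526), a call that appeared under quantile normalization (0.17, adjusted p = 0.00271). A comparison of 24 with 12 h was added after the values were seen. In it the difference grew in 3 of 10 genes, against 4.69% of all genes, namely ACSS2 (0.34 ± 0.05, adjusted p = 7.9e-05), ME1 (0.24 ± 0.04, adjusted p = 6.15e-05) and FADS1 (0.09 ± 0.02, adjusted p = 0.00932). The call of FADS1 was lost without any of 13 of the 16 cultures, with adjusted p up to 0.0244. It was also lost in 5 of 10 processing alternatives, with adjusted p of 0.0103 (0.1 added before the log2) to 0.0235 (median-ratio scaling). The other 7 genes changed by -0.07 (ELOVL6) to 0.06 (ELOVL5) between 12 and 24 h.

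Set as a share of the 24 h difference, the 6 h difference was 60.9% for ELOVL5, 40.2% for SCD, 22.0% for ME1, 18.9% for ACSS2 and 16.3% for FASN. It was 2.65% for FADS2 and 0.515% for FADS1, and below 0 for ELOVL6, ACACA and ACLY (-12.9%, -14.5% and -20.8%). The median of the 10 genes was 9.47%, beside 20.6% for the 2623 genes called higher at 24 h and 37.2% for the 19 cholesterol synthesis genes among them. Of the 21 cholesterol synthesis genes tested, 15 were first called higher at 6 h and 5 at 12 h. Of the 10 fatty acid genes, 4 were first called at 6 h and 6 at 12 h. Among all 12621 genes tested, 442 were first called higher at 6 h and 793 at 12 h. The median 24 h difference was 0.64 for the cholesterol genes and 0.36 for the 10 genes. A first call depends on the size of a difference as well as on its timing. These shares and counts describe the lists and carry no test. At 12 h the shares were 58.2% (ME1) to 129% (ELOVL6). The lowest were those of ME1, FADS1 (73.4%) and ACSS2 (74.9%), the genes called in the test of 24 against 12 h. ELOVL5 (75.9%) and ACACA (77.4%) came next and did not pass that test.

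**Figure D3:**
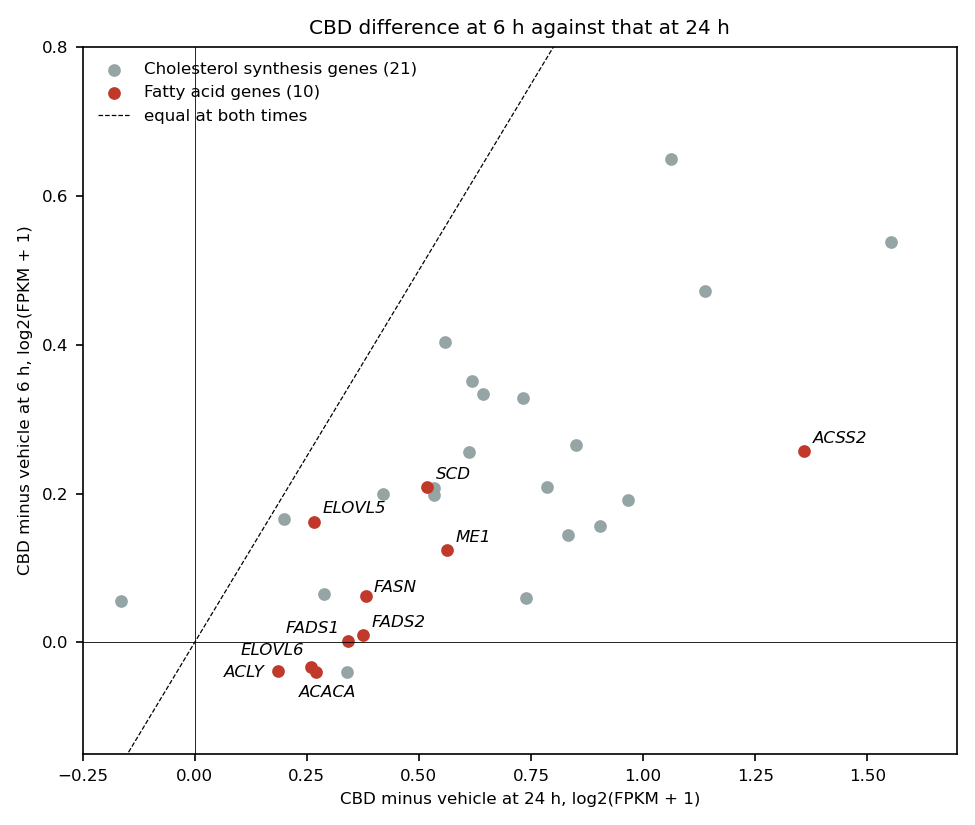
CBD difference at 6 h (y axis) against that at 24 h (x axis), both on the log2(FPKM + 1) scale, for the 10 fatty acid genes (red, named) and 21 cholesterol synthesis genes (grey), with a dashed line where both are equal. FADS1, FADS2, ACLY, ACACA and ELOVL6 lie within 0.04 of 0 at 6 h while they reach 0.19 to 0.38 at 24 h.

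The vehicle cultures themselves changed between 6 and 24 h, and for some genes the difference at 24 h came with a fall in vehicle. In vehicle, 6 of 10 genes fell, against 29.3% of all genes, and 0 of 10 rose, against 20.3% of all genes (1 at an unadjusted p under 0.05, ACSS2). ELOVL6 fell by 0.39, ACLY by 0.19, FADS2 by 0.19, ELOVL5 by 0.19, FADS1 by 0.14 and ME1 by 0.09 on the log2 scale (adjusted p = 1.3e-09 for ELOVL6 to 0.00331 for ME1, limma). The falls of FADS1 and FADS2 lost their call under quantile normalization (adjusted p = 0.0288 and 0.108) and those of FADS2 and ME1 under median-ratio scaling (0.013 and 0.0328). The fall of ME1 was also lost without vehicle replicate 3 or 4 of 6 h or vehicle replicate 1 or 3 of 24 h, and that of FADS2 without vehicle replicate 1 of 24 h (adjusted p = 0.0113), with adjusted p up to 0.0149 for ME1. In CBD over the same span, 7 of 10 genes rose, against 29.0% of all genes, and 0 of 10 fell, against 34.1% (2 at an unadjusted p under 0.05, ELOVL5 and ELOVL6).

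The 2 spans, set side by side, place the genes in groups. ACSS2, ACACA, FASN and SCD rose within CBD (1.19, 0.25, 0.21 and 0.27) and were not called within vehicle (0.09, -0.05, -0.11 and -0.04). ME1, FADS1 and FADS2 rose within CBD (0.35, 0.20 and 0.18) and fell within vehicle, and the rise of FADS2 lost its call without CBD 6 h replicate 4 (adjusted p = 0.0198). ACLY, ELOVL5 and ELOVL6 fell within vehicle and were not called within CBD, at 0.03 (95% interval -0.01 to 0.07), -0.08 (-0.14 to -0.03) and -0.10 (-0.18 to -0.02). ELOVL6 measured 29.1, 30.2, 28.8 and 30.6 FPKM with CBD at 24 h, no higher than the 30.8 to 33.2 FPKM of CBD at 6 h, while vehicle was at 23.1, 24.7, 25.7 and 25.0 FPKM. For ACLY the CBD level within the span was called as a rise under quantile normalization (0.16, adjusted p = 1.13e-05). For ELOVL5 it was called as a fall without replicate 4 of CBD at 6 h or at 24 h (adjusted p = 0.00231 and 0.00476) and stood at 0.06 under quantile normalization. Mean CBD levels were highest at 12 h in 8 of the 10 genes, all but ACSS2 and ME1.

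**Figure D4:**
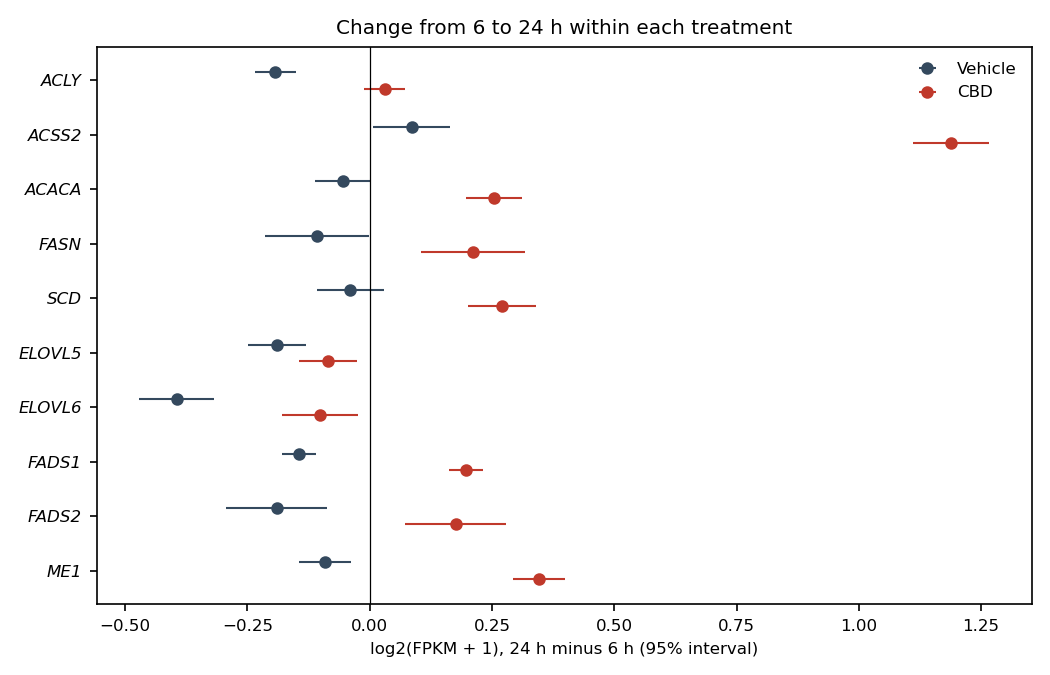
Change from 6 to 24 h on the log2(FPKM + 1) scale (x axis) within vehicle (dark blue) and within CBD (red) for the 10 genes (y axis), with points at the difference of 4 and 4 cultures and bars of the 95% interval. ACLY, ELOVL5 and ELOVL6 have red points between -0.10 and 0.03 beside blue points of -0.19 to -0.39, and ACSS2 reaches 1.19 with CBD.

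Ratios within a sample were compared for pairs of enzymes, of which only ACACA and FASN act in consecutive steps. Exact two-sided permutation tests of 4 against 4 cultures were used, which allow no p below 0.0286. None of 16 tests passed an adjusted p of 0.05, and 7 reached the smallest unadjusted p. With 7 exact permutation tests at that floor the adjusted p was 0.0653, which is the lowest it could be. Missing the threshold therefore does not show that ratios were equal. The log2 ratio of ELOVL6 to ELOVL5 was lower with CBD at 6 h (-1.39 ± 0.10 against -1.19 ± 0.02, SD, n = 4 and 4, exact permutation p = 0.0286, adjusted p = 0.0653) and higher at 12 h (-1.19 ± 0.04 against -1.32 ± 0.07, exact permutation p = 0.0286, adjusted p = 0.0653), with non-overlapping cultures at both times and a mean difference of -0.01 at 24 h. The ratio of FADS2 to FADS1 differed by 0.09 at 12 h (exact permutation p = 0.0286) and by 0.03 at 24 h (exact permutation p = 0.2). The ratio of FASN to ACACA differed by 0.11 at 12 h (exact permutation p = 0.0286) and by 0.11 at 24 h (exact permutation p = 0.114). SCD against HMGCS1, the cholesterol pathway gene named for comparison, differed by -0.33, -0.74 and -1.03 at 6, 12 and 24 h, all with non-overlapping cultures (exact permutation p = 0.0286 each, adjusted p = 0.0653), and by -0.01 at 3 h.

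Further genes of lipid metabolism were called in both directions. For the counts that follow, the shares of all genes called higher were 4.07%, 8.85% and 20.8% at 6, 12 and 24 h, and 11.2% and 21.3% were called lower at 12 and 24 h. Of 30 further genes of fatty acid synthesis, elongation, desaturation and activation, 22 were tested and 1, 9 and 13 were called higher at 6, 12 and 24 h, with 2 and 1 called lower at 12 and 24 h and a median of 0.20 at 24 h. The greatest rise was in FADS3, the neighbour of FADS2 on chromosome 11 (0.56 ± 0.06 at 24 h, adjusted p = 3.38e-08, limma), and the fall was in CBR4, a subunit of the mitochondrial ketoacyl reductase (-0.14 ± 0.04). Of 9 genes of the pentose phosphate pathway and of other NADPH-linked steps, 4 were called higher at 24 h with a median of 0.00. The greatest rise was in TKT (0.32 ± 0.03), transketolase, which acts in the non-oxidative branch of that pathway and itself makes no NADPH. Of 22 beta oxidation genes, 6 were higher and 6 lower at 24 h, shares near those of all genes, with a median of -0.02. CPT1A, which gates fatty acid entry into mitochondria, was at 0.70 ± 0.03 and ECHS1, an enoyl-CoA hydratase, at -0.35 ± 0.03. Of 17 glycerolipid genes tested, 6 were higher and 4 lower at 24 h (median 0.08), led by LPCAT3, which places polyunsaturated chains into phospholipids (0.39 ± 0.04), and by FABP5, a fatty acid binding protein (-0.42 ± 0.06).

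Among 17 regulators tested, 4 were called higher and 4 lower at 24 h, near the 20.8% and 21.3% of all genes, with a median of 0.02. INSIG1, which holds the SREBP escort in the endoplasmic reticulum and is itself an SREBP target, differed by -0.17 at 3 h (called lower), 0.70 at 6 h, 1.049 at 12 h and 1.17 at 24 h. INSIG2 differed by -0.32 at 24 h. SREBF1, whose product is known to drive fatty acid genes, differed by 0.08, 0.23 and 0.14 at 6, 12 and 24 h and was called at 12 h only (adjusted p = 0.375, 0.00402 and 0.0499, limma). SREBF2, known for driving cholesterol genes, differed by 0.05, 0.23 and 0.46 and was called at 12 and 24 h.

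The genes whose 4 CBD differences were most like those of the members with a difference of at least 0.5 were named by the smallest Euclidean distance over the 4 times, among 12621 genes. For ACSS2 these were MVD, RET and ASS1, at distances of 0.322, 0.373 and 0.381. For SCD they were SC5D, SNORD76 and TMEM97 (0.0721, 0.0785 and 0.108), with SC5D at 0.21, 0.48 and 0.53 at 6, 12 and 24 h. For ME1 they were GMPR, FADS3 and SNAI1 (0.0495, 0.0541 and 0.0608). No gene came as close to ACSS2 as the nearest ones did to SCD and ME1.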

How the data were processed

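The authors prepared polyA RNA libraries from the 32 cultures, sequenced single 50-base reads, trimmed them (Trimmomatic 0.36 by the submitters' processing notes), aligned the trimmed reads to the hg19 build with TopHat and ran Cufflinks for FPKM per gene in every sample. The FPKM values are used as the authors deposited them. A further table of the authors' own Cuffdiff comparisons (log2 fold changes and q-values) was not used. The library kit is named differently in the labels and the methods.

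Each value was taken as log2(FPKM + 1) and genes whose mean was under 1 FPKM were dropped. A linear model of 8 group means was fitted over the 32 samples in limma 3.58.1 (R 4.3.3), with moderated variances that follow a trend on intensity. P-values were adjusted within a comparison by Benjamini-Hochberg, and 0.01 was the threshold. A difference of low genes is understated on this scale. The fit was tested on simulated data. No samples were identical. Ratios were computed in R, and motifs, positions and plots used Python version 3.11.15. Alternatives were other added values (0.1, 5), filters, scalings, variance models and thresholds, each comparison fitted alone, a replicate block and each culture left out. Relative depth as a model term and the comparison of 24 with 12 h were added after the values were seen.

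Reported were all 10 genes, and per further list the greatest rise and fall at 24 h, with SREBF1 and SREBF2. The members, lists, motifs and tests were chosen with earlier results of these data known.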

Additional observations from a re-analysis of the deposited data

Results flagged for a closer look

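A sample stood far from the other 3 of its group in 8 of 80 groups tested (10 genes in 8 groups), where chance gives about 1 in 20. The levels were 5.27 FPKM for ACSS2 in vehicle 24 h replicate 2, 122.6 FPKM for FASN, 227.9 FPKM for SCD and 140.5 FPKM for FADS2 in vehicle 3 h replicate 4, 164.1 FPKM for FASN in CBD 24 h replicate 1, 240.2 FPKM for SCD in CBD 3 h replicate 1, and 263 FPKM for SCD and 82.2 FPKM for ELOVL5 in vehicle 12 h replicate 1. Of these, 3 were in vehicle 3 h replicate 4. The 10 genes were measured in the same cultures, so the 80 groups are not independent.

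The CBD difference changed between times (an interaction in the limma model, log2 scale). From 3 to 6 h it grew by 0.32 for ACSS2 and 0.30 for SCD. From 6 to 12 h it grew by 0.24 for ACLY, 0.76 for ACSS2, 0.25 for ACACA, 0.28 for SCD, 0.37 for ELOVL6, 0.25 for FADS1, 0.33 for FADS2 and 0.20 for ME1. From 6 to 24 h it grew by 0.22 for ACLY, 1.10 for ACSS2, 0.31 for ACACA, 0.32 for FASN, 0.31 for SCD, 0.29 for ELOVL6, 0.34 for FADS1, 0.37 for FADS2 and 0.44 for ME1. From 12 to 24 h it grew by 0.34 for ACSS2, 0.091 for FADS1 and 0.24 for ME1. The spans share samples, since those of 6 h enter the first 3.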

How the results depend on the processing

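The counts of genes called in the 10 comparisons kept within 1.5 times of their value in all alternatives but 2: the count at 6 h was 2 in place of 4 with the groups fitted alone, and the count at 3 h was 0 to 1 with single cultures left out. For single genes, 1206 of 1240 values under alternatives and 1074 of 1120 values with a culture left out kept direction and call. Values reversed under quantile normalization were not called on either side: ELOVL5 at 3 h (-0.0125), FADS1 and FADS2 at 6 h (-0.00706 and -0.00809), ACLY from 3 to 6 h (0.0335), ACACA and SCD in vehicle from 6 to 24 h (0.0134 and 0.00453), ELOVL5 in CBD from 6 to 24 h (0.0607) and ACLY from 12 to 24 h (0.00397). Signs also turned among uncalled values with cultures left out, over ranges given here on the log2 scale: ACLY at 3 h -0.0428 to 0.00184, ELOVL5 at 3 h -0.00375 to 0.0272, FADS1 at 3 h -0.014 to 0.0115, FADS1 at 6 h -0.00626 to 0.00813, FADS2 at 6 h -0.0105 to 0.0483, ACLY from 3 to 6 h -0.0404 to 0.00419, ELOVL6 from 3 to 6 h -0.0023 to 0.0569, ACACA from 3 to 6 h -0.00995 to 0.0263, FADS1 from 3 to 6 h -0.00969 to 0.0158. Same-numbered CBD and vehicle cultures of a time point had correlations of -0.08 to 0.09 over 16 pairs, after group means were removed. In 5 of the 16 pairs the best match had the same number. Whether cultures of the same number were alike across time points was not tested. A replicate block moved the calls over all genes from 310 to 447, 1288 to 1570, 2533 to 2806 and 5314 to 5641 at 3, 6, 12 and 24 h, left the members' counts at 0, 4, 10 and 10, and added a fall of ELOVL6 within CBD from 6 to 24 h (adjusted p = 0.00681, limma) but changed no other call of a member. FPKM carry no read counts, so what depth limits could not be given per gene.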
